A study of Mus musculus with 32 samples.

Results

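The heat shock chaperones followed here are 10 genes, Hspa1a, Hspa1b, Hspa8, Hsph1, Dnajb1, Bag3, Hsp90aa1, Hspb1, Hspd1 and Hspe1, and they were taken as every non-control probe that the array design names after one of them. Probes were found for 9 of the 10 genes (15 probes), of 21710 genes tested. Hspa1b had no probe of its own, and the only Hspa1a probe lists transcripts of both Hspa1a and Hspa1b, so the 2 genes were measured as 1. The livers came from male C57/BL6 mice, and RNA of each was hybridised to 1 of 32 one-colour oligonucleotide arrays, with 4 livers in each of 8 groups. At baseline, mice had been fed for 3 weeks on a standard diet or on a diet deficient in methionine and choline (MCD), which makes the liver fatty and inflamed, without agonist or with a dual agonist of the GLP-1 receptor and the glucagon receptor, 4.4 mg/kg/day given on alternate days over 2 weeks. The 4 other groups had the same diets and treatments, lost 70% of the liver by partial hepatectomy, and were sampled 2 weeks later while diet and agonist went on, so they also differ from the baseline groups in the length of both. No group of sham-operated mice was analysed here.

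Heat shock proteins are chaperones: they bind unfolded or newly made proteins and help them to fold, or hand them over for degradation. The inducible HSP70 proteins, encoded by Hspa1a and Hspa1b, rise steeply after heat, toxic injury or surgery, while Hspa8 encodes the constitutive HSP70 of the same compartment. Dnajb1 encodes a J-domain protein that delivers clients to HSP70, Hsph1 an HSP110 protein that exchanges its nucleotide, Bag3 a co-chaperone that links HSP70 to autophagy, Hsp90aa1 the inducible HSP90 of the cytosol, and Hspb1 the small heat shock protein HSP27. Hspd1 and Hspe1 encode HSP60 and its lid HSP10, which fold proteins in the mitochondrial matrix. Transcription of most of them is driven by heat shock factor 1, which binds repeats of the block nGAAn in alternating orientation, and in mouse liver several of them also follow the daily cycle of body temperature and feeding.

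The 3 probes below are shown because the results turn on what they report; they are given in the 5′ to 3′ direction of the transcript, with the mm9 positions of the array files, and no capitals are used because no part of them is singled out. The Hspa1a probe lies at chr17:35107117-35107176 on the minus strand. Both Hspa8 probes lie on the plus strand, the first at chr9:40611142-40611201 and the second at chr9:40612755-40613050, a span of 296 bases for a probe of 60 bases.
Hspa1a A_55_P2068459: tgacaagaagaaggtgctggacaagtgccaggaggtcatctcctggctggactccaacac
Hspa8 A_52_P12877: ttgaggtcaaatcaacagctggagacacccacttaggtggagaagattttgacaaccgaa
Hspa8 A_55_P2069721: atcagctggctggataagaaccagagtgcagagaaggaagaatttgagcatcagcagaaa

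Promoter windows of 300 bases (250 before the transcription start, 50 from it on; RefSeq, GRCm38.p6) were at hand for 8 of the 10 genes, in 11 windows. Each was searched for a pair of facing blocks of the heat shock element, GAANNTTC or TTCNNGAA; each motif reads the same on both strands, and in a longer run of blocks the matches overlap. At least 1 pair was found in 7 of the 8 genes, and in 15.1% of all 32851 promoter windows of that length. Genes were counted if any of their windows matched, while the shares are per window, so the figures are not on the same footing. A run of 3 alternating blocks was found in 3 of the 8 genes, Hsph1, Hspd1 and Hspe1, and in 0.603% of all windows. Both Dnajb1 windows and an Hspd1 window held no pair, which says only that these letters are not in them. The 4 windows below are those of an inducible HSP70, of HSP110, of HSP27 and of HSP10, with the matches in capitals, at chr17:34972107-34972406 (minus strand), chr5:149636287-149636586 (minus strand), chr5:135887669-135887968 (plus strand) and chr1:55087898-55088197 (plus strand).
Hspa1a: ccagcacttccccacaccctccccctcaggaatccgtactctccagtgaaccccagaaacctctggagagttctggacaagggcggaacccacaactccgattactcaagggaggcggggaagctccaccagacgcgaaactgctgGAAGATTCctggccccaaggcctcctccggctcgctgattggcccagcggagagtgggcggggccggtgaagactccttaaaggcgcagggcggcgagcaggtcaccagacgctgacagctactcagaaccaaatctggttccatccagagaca
Hsph1: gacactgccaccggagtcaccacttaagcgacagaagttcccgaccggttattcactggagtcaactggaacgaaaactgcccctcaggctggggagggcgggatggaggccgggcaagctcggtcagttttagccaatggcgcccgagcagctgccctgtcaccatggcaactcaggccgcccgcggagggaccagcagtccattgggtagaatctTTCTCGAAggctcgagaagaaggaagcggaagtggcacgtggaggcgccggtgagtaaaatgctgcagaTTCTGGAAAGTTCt
Hspb1: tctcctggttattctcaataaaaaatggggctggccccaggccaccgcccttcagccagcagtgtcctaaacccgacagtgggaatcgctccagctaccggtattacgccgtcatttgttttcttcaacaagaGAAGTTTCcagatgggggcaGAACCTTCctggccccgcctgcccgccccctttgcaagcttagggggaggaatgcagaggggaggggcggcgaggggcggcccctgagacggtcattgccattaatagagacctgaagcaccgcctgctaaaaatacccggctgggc
Hspe1: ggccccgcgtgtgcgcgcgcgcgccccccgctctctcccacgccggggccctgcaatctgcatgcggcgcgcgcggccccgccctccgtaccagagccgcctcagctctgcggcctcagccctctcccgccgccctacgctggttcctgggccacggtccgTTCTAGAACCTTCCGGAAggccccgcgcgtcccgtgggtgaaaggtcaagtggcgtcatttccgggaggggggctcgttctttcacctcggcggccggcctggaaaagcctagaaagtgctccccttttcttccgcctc

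The Hspa1b window differed from the Hspa1a window at 4 of 300 positions and held the same single pair. Hspd1 and Hspe1 are transcribed away from each other, and 1 of the 2 Hspd1 windows shares 285 bases with the Hspe1 window, including the run of blocks.

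The share of probes well above background ranged over the arrays from 43.0% to 69.1%, with a median of 52.6%, and at most 2 spots of an array were saturated. There were 4 slides, each holding 2 groups, 1 group to a row, with replicates 1 to 4 in columns 1 to 4. Both diet comparisons at baseline and both agonist comparisons after hepatectomy were made within a slide, where row and group cannot be told apart. Comparisons of the agonist before hepatectomy, of the diets after it, and of livers with and without it ran across slides, the last also across 2 scanners, so that slide and group cannot be told apart there. The liver was recognisable on every array: all 6 measured hepatocyte markers were above background throughout. In pieces of whole liver, fewer cells of a type and less RNA per cell cannot be told apart.

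Group names are taken from the sample records, as linked to each scan. In the submitters' table of processed values, 16 of 32 columns had their best match in an array of another group, the columns of untreated MCD livers and of agonist-treated standard diet livers having changed places, both at baseline and after hepatectomy. Mat2a, a methionine adenosyltransferase picked here after its values were seen because it is known to rise when methionine is short, lay at 15.31 to 15.83 in the group means of all 4 MCD groups by the scanner records and at 13.44 to 13.95 in the 4 standard groups. With the table's own column names, Mat2a differed by -0.26 between the diets at baseline (adjusted p = 0.774) and by 2.03 between agonist and no agonist on standard diet (adjusted p = 0.00155). The comparisons below use the scanner records, and the calls of chaperones within baseline and within hepatectomy under the table's own column names are given further on. The table's columns had medians of 6.48 at baseline and 6.95 to 6.96 after hepatectomy, so it was not used to compare livers with and without hepatectomy.

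Values are levels, log2 of the processed signal after each array was scaled to a common 75th percentile (8.90), or differences of such levels, given as log2 change ± SE of a fit to all 8 groups with limma and with p-values adjusted over 21710 genes. A gene with an adjusted p under 0.05 is said to have risen or fallen. Where a gene has several probes, the one with the highest mean is meant. Levels of different genes come from different probes and are not compared with each other. Whether the arrays of groups overlap is a description, and the share of all tested genes without overlap is not given here.

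Most of the chaperone genes stood highest in livers on standard diet with the agonist at baseline. For 6 of the 9 genes (Hspa1a, Hsph1, Dnajb1, Bag3, Hsp90aa1 and Hspb1), the highest of the 8 group means was that of standard diet with agonist at baseline. The share of all tested genes with this highest group is not given here, so whether the count is particular to the chaperones cannot be told. For Hspa1a, Hsph1, Bag3 and Hspb1 the arrays of this group overlapped those of the next group, untreated standard diet at baseline. For Dnajb1 and Hsp90aa1 they did not overlap those of the next group. The widest range of group means was that of Hspa1a, 4.63 on the log2 scale against a pooled SD within groups of 0.78, and the narrowest that of Hspd1, 0.52 against 0.45. The lowest group mean was that of MCD diet with agonist at baseline for 3 genes (Hspa1a, Hspa8 and Dnajb1), that of MCD diet with agonist after hepatectomy for 2 (Hsp90aa1 and Hspb1), and that of another group, a different one each time, for the other 4.

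**Figure D1:**
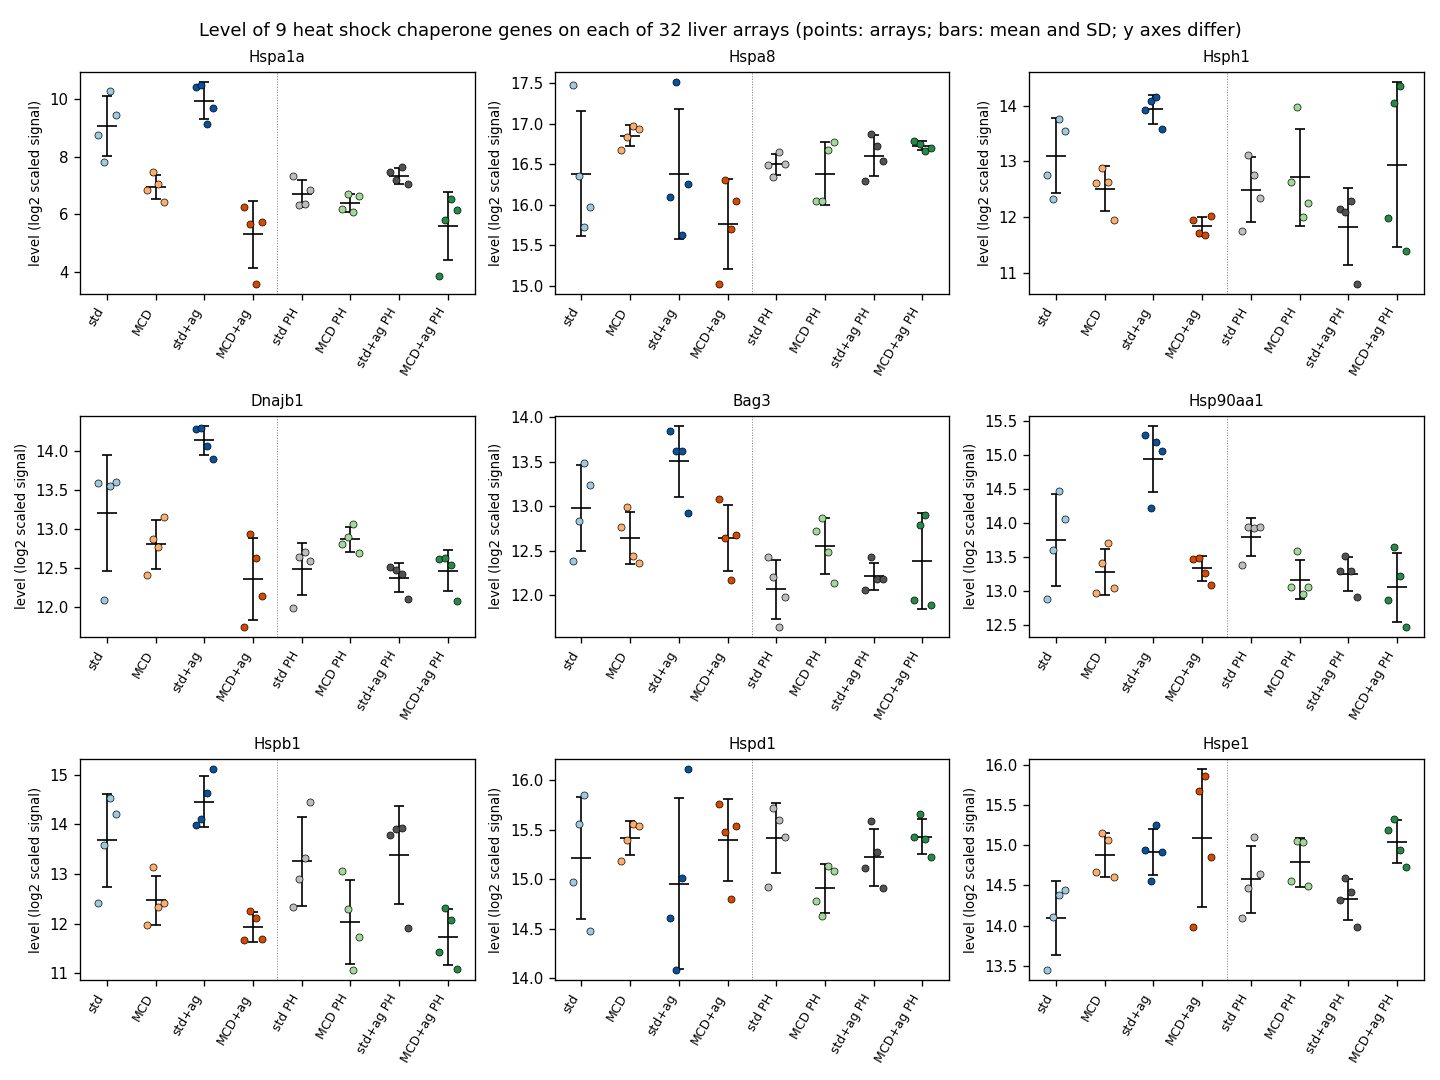
Level (log2 scaled signal, y axis, a separate scale in each panel) of 9 chaperone genes on each of 32 arrays (points), by group (x axis: std, standard diet; MCD, methionine and choline deficient diet; ag, agonist; PH, partial hepatectomy), with the mean and SD of the 4 livers as bars. For Hspa1a the 4 arrays of standard diet with agonist at baseline lay at 9.15 to 10.50, and those of MCD diet with agonist at 3.58 to 6.24.

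Hspa1a, the inducible HSP70, carried the widest differences. On standard diet without agonist at baseline its level was 8.76, 7.82, 10.27 and 9.43 in the 4 livers. With the agonist on the same diet it was 10.40, 10.50, 9.15 and 9.68, a range that overlaps the untreated one. On the MCD diet it was 6.84, 7.47, 7.04 and 6.44, below every liver on standard diet.

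With agonist on the MCD diet the Hspa1a levels were 6.24, 5.66, 3.58 and 5.72, and the probe was well above background on only 1 of these 4 arrays, so that the lower end is imprecise. After hepatectomy the 4 group means lay between 5.59 and 7.34. Those livers read 6.33 to 7.31 on standard diet, 7.04 to 7.65 on standard diet with agonist, 6.09 to 6.69 on MCD diet and 3.85 to 6.54 on MCD diet with agonist, where 3 of 4 arrays were well above background. In the order of the 8 means, standard diet at baseline and the next lower group, standard diet with agonist after hepatectomy, were the only neighbours whose arrays did not overlap.

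The MCD diet at baseline, without agonist, was accompanied by a fall of Hspa1a and by no other called change among the 9 genes. Hspa1a fell by 2.12 on the log2 scale (-2.12 ± 0.52, 4.35-fold, adjusted p = 0.00359 by limma), with no overlap between the groups. The diet moved 26.0% of all tested genes, and 1 of 9 chaperones is no larger a share. Hspb1 was at -1.21 ± 0.49 (adjusted p = 0.0655) and Hspe1 at 0.78 ± 0.31 (adjusted p = 0.0591), and neither passed. Hspe1 did pass with normexp background correction, median scaling, quantile normalization, the mean over its probes and the replicate block (adjusted p = 0.0303 with the block), and in the submitters' table at matched arrays (adjusted p = 0.0292). The median over the 9 genes was -0.41, beside -0.13 over all tested genes. All 7 measured macrophage markers rose in this comparison, and the summed macrophage level was 15.33 to 16.73 against 14.01 to 14.84; their part in the result was not tested.

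Under the agonist, the difference between the diets took in 6 of the 9 genes, all of them cytosolic. In livers on MCD diet with agonist, 6 of 9 genes were lower than in livers on standard diet with agonist, and none rose; 15.2% of all tested genes passed in this comparison. The median over the 9 genes was -1.61, beside 0.03 over all tested genes. Hspa1a fell by 4.63 (-4.63 ± 0.52, 24.8-fold, adjusted p = 8.36e-07 by limma), its dim group being well above background on 1 of 4 arrays.

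The HSP70 partners moved the same way. Dnajb1, the J-domain partner, stood at 14.28, 14.30, 14.06 and 13.90 on standard diet with agonist and at 11.74, 12.93, 12.63 and 12.14 on MCD diet with agonist, without overlap (-1.78 ± 0.28, adjusted p = 8.15e-05). Hsph1, the HSP110 protein, stood at 13.91, 14.09, 14.14 and 13.58 against 11.94, 11.72, 11.68 and 12.02, again without overlap (-2.09 ± 0.50, adjusted p = 0.00453). Bag3 stood at 13.85, 13.62, 13.63 and 12.93 against 13.08, 12.65, 12.17 and 12.68, where the lowest liver of the first group reached into the second (-0.86 ± 0.27, adjusted p = 0.0307). The Bag3 call was the weakest of the 6: it was lost without standard diet with agonist replicate 1, 2 or 3 or MCD diet with agonist replicate 2, 3 or 4 (adjusted p 0.0513 to 0.101), without the filter on dim probes (adjusted p = 0.0578), in the fit to these 2 groups alone (adjusted p = 0.125) and in the submitters' table at matched arrays (adjusted p = 0.0936).

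Hsp90aa1, the inducible HSP90, read 15.29, 14.22, 15.20 and 15.06 on standard diet with agonist and 13.48, 13.49, 13.27 and 13.1 on MCD diet with agonist. The groups did not overlap, and the difference was -1.61 ± 0.29 (adjusted p = 0.000381). Hspb1, the small heat shock protein, read 13.99, 14.10, 14.62 and 15.11 against 11.67, 12.25, 12.10 and 11.69, also without overlap (-2.53 ± 0.49, 5.76-fold, adjusted p = 0.000763). The calls of Hspa1a, Dnajb1, Hsph1, Hsp90aa1 and Hspb1 were kept without any 1 of the 8 arrays.

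The 3 genes that did not pass were the constitutive Hspa8 (-0.61 ± 0.33, adjusted p = 0.231) and the mitochondrial pair, Hspd1 at 0.44 and Hspe1 at 0.18. Of the 7 measured macrophage markers 2 fell in the same comparison, and the summed level was 14.21 to 15.34 on MCD diet with agonist and 15.31 to 16.21 on standard diet with agonist; their part in the result was not tested.

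**Figure D2:**
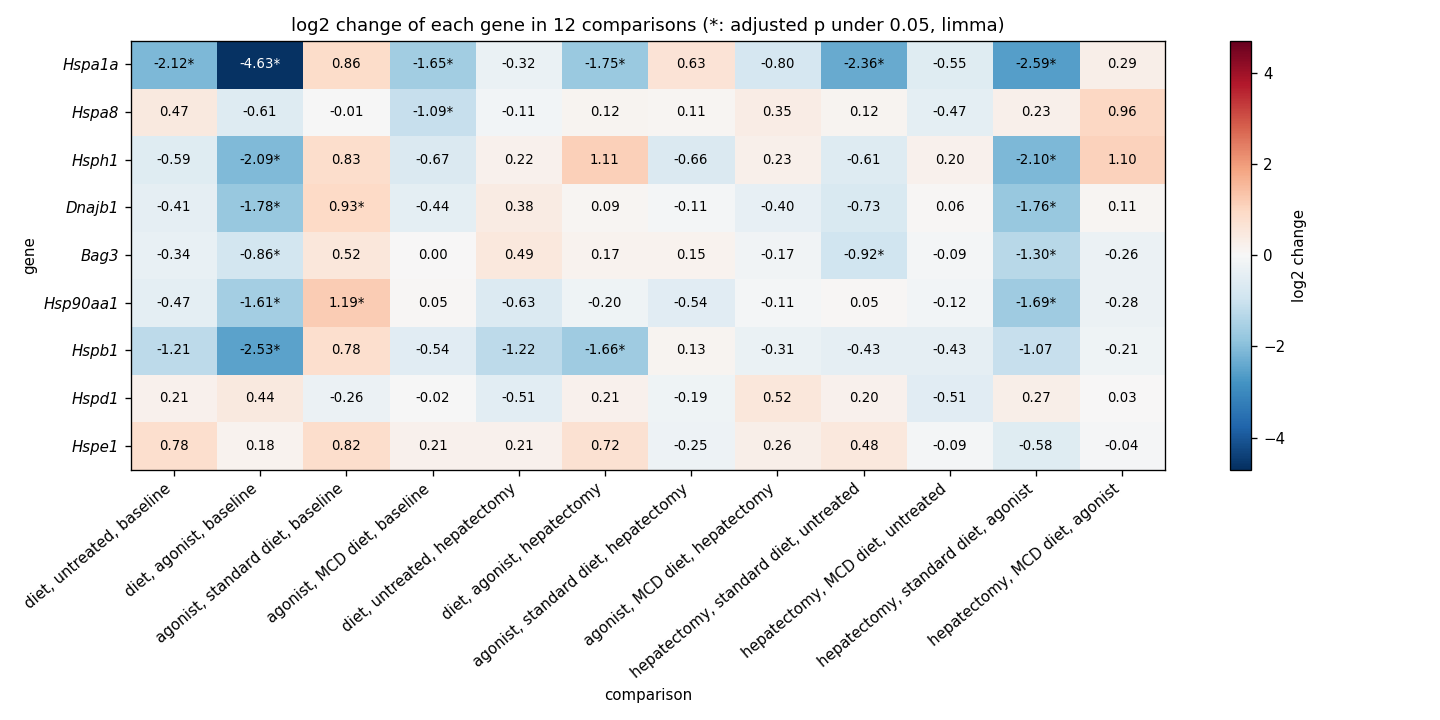
log2 change of 9 chaperone genes (rows) in the 12 comparisons between groups (columns), coloured from blue (lower in the first-named condition) to red (higher), with an asterisk where the adjusted p of limma was under 0.05. The columns of diet under agonist at baseline and of hepatectomy on standard diet with agonist hold 6 and 5 of the marked values, and the rows of Hspd1 and Hspe1 hold none.

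The called changes with the agonist at baseline were upward on standard diet and downward on the MCD diet. On standard diet, 2 of 9 genes rose, Hsp90aa1 by 1.19 ± 0.29 (adjusted p = 0.0157) and Dnajb1 by 0.93 ± 0.28 (adjusted p = 0.0438), where 6.51% of all tested genes passed. Dnajb1 had stood at 13.59, 12.09, 13.56 and 13.60 without agonist, so that every treated liver was above every untreated one and replicate 2 was far below the other untreated livers. Hsp90aa1 had stood at 12.88, 13.60, 14.47 and 14.05, and the lowest treated liver, at 14.22, lay inside that range. The median over the 9 genes was 0.82, beside -0.01 over all tested genes; Hspa1a was at 0.86, Hsph1 at 0.83, Hspb1 at 0.78 and Bag3 at 0.52, and none of these passed.

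Both of these calls were sensitive to single livers. Dnajb1 was not called without standard diet replicate 2 (0.56, adjusted p = 0.184) or without standard diet with agonist replicate 1, 2 or 3 (0.87 to 0.95, adjusted p 0.0805 to 0.117). Hsp90aa1 was not called without standard diet replicate 1 (0.90, adjusted p = 0.0624) or without standard diet with agonist replicate 1 or 3 (1.08 and 1.11). In the fit to these 2 groups alone neither passed (adjusted p = 0.218 and 0.147). Dnajb1 was also lost with normexp, median scaling, quantile normalization, no filter, the replicate block and the submitters' table at matched arrays (adjusted p 0.0510 to 0.0834). Of the 7 macrophage markers 3 rose in this comparison; their part in the result was not tested.

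On the MCD diet at baseline the agonist was accompanied by 2 falls of 9, where 13.3% of all tested genes passed. Hspa1a fell by 1.65 (-1.65 ± 0.52, adjusted p = 0.0335) and Hspa8 fell by 1.09 (-1.09 ± 0.33, adjusted p = 0.0283), both without overlap between the groups, the Hspa1a probe being well above background on 1 of 4 treated arrays. The median over the 9 genes was -0.44, beside 0.14 over all tested genes. The Hspa1a call was lost without MCD diet replicate 1, 2 or 3 (-1.47 to -1.68) and without MCD diet with agonist replicate 3, the dimmest array (-1.08, adjusted p = 0.176), and in the fit to these 2 groups alone (adjusted p = 0.0631). That call was also lost in the submitters' table at matched arrays (-0.79, adjusted p = 0.0591 by limma). The Hspa8 call was lost without MCD diet replicate 2, 3 or 4 or MCD diet with agonist replicate 1 or 3 (adjusted p 0.0545 to 0.109), and with the mean over its probes (-0.74, adjusted p = 0.0505). Of the 7 macrophage markers 2 fell here; their part in the result was not tested.

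The difference between these responses to the agonist was tested itself. It passed for Hspa1a, whose response was lower on the MCD diet by 2.51 ± 0.73 (-2.51, adjusted p = 0.0259), a size that rests on a group in which the probe was well above background on 1 of 4 arrays, and for Dnajb1 (-1.37 ± 0.40, adjusted p = 0.0241), 2 of 9 genes where 11.1% of all tested genes passed. Hsp90aa1 was at -1.14 ± 0.41 (adjusted p = 0.0691), Hsph1 at -1.50 ± 0.70 and Hspb1 at -1.31 ± 0.69, and these did not pass. The Hspa1a difference was not called without standard diet replicate 2, MCD diet replicate 2, standard diet with agonist replicate 1 or MCD diet with agonist replicate 3 (-1.94 to -2.35, adjusted p 0.0507 to 0.0679). The Dnajb1 difference was not called without standard diet replicate 2, MCD diet replicate 4 or MCD diet with agonist replicate 1 (-1.0 to -1.25, adjusted p 0.0511 to 0.0562). In the fit to these 4 groups alone both were lost (adjusted p = 0.0544 for Hspa1a and 0.0906 for Dnajb1), and Hsph1 was called in their place (adjusted p = 0.0424). The submitters' table gives this difference the same value under either set of column names: Hspa1a at -1.58 (adjusted p = 0.0171 as deposited) and Hspa8 at -2.30 (adjusted p = 0.00852) were called, and Dnajb1 was at -1.28 (adjusted p = 0.0528).

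Hepatectomy on standard diet was accompanied by falls and by no rise among the 9 genes, with and without the agonist. Without agonist, 2 of 9 genes fell, where 13.8% of all tested genes passed: Hspa1a by 2.36 (-2.36 ± 0.52, adjusted p = 0.00363) and Bag3 by 0.92 (-0.92 ± 0.27, adjusted p = 0.0246). The Hspa1a groups did not overlap. Bag3 had stood at 12.38, 12.83, 13.49 and 13.24 and was at 12.43, 12.20, 11.64 and 11.98 after hepatectomy, and its call was lost without standard diet replicate 3 or 4 or without replicate 3 or 4 of the hepatectomised group (-0.76 to -0.90). The Bag3 call was also lost with median scaling (-0.77, adjusted p = 0.122), with quantile normalization (-0.74, adjusted p = 0.0724) and in the fit to these 2 groups alone (adjusted p = 0.104), and with normexp background correction the value was -0.19 (adjusted p = 0.651). In this comparison all 7 macrophage markers rose as well (summed level 14.89 to 17.05 against 14.01 to 14.84); their part in the result was not tested.

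With the agonist on standard diet, 5 of 9 genes were lower after hepatectomy, against 7.38% of all tested genes that passed, and the median over the 9 genes was -1.30, beside -0.04 over all tested genes. Hspa1a fell by 2.59 (-2.59 ± 0.52, adjusted p = 0.00388), Hsph1 by 2.10 (-2.10 ± 0.50, adjusted p = 0.0116), Dnajb1 by 1.76 (-1.76 ± 0.28, adjusted p = 0.000626), Hsp90aa1 by 1.69 (-1.69 ± 0.29, adjusted p = 0.00128) and Bag3 by 1.30 (-1.30 ± 0.27, adjusted p = 0.00566). None of these 5, already picked by their adjusted p, overlapped between the groups, with no share over all tested genes to set beside it. Dnajb1, for example, was at 12.51, 12.48, 12.42 and 12.10 after hepatectomy. Hspb1 was at 13.78, 13.91, 13.93 and 11.90 after hepatectomy and did not pass (-1.07 ± 0.49, adjusted p = 0.174). The Hsph1 call was lost without standard diet with agonist after hepatectomy replicate 4 (-1.76, adjusted p = 0.0544), and the other 4 calls were kept without any 1 array. With normexp background correction Bag3 was at -0.55 and was not called (adjusted p = 0.172). This comparison shares the group of standard diet with agonist at baseline with the diet comparison under agonist.

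On the MCD diet no chaperone passed after hepatectomy: 0 of 9 without agonist (0 with an unadjusted p under 0.05 by limma), where 9.46% of all tested genes passed, and 0 of 9 with agonist (2 with an unadjusted p under 0.05), where 10.0% passed. In the latter, Hspa8 was at 0.96 ± 0.33 (adjusted p = 0.0598) and Hsph1 at 1.10 ± 0.50 (adjusted p = 0.154). Hsph1 split the 4 hepatectomised livers on MCD diet with agonist: replicates 2 and 3 read 14.04 and 14.35, and replicates 1 and 4 read 11.99 and 11.39. The same replicates were the higher ones for Bag3 (12.79 and 12.89 against 11.94 and 11.89) and Hsp90aa1 (13.65 and 13.23 against 12.87 and 12.47).

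The diets were also compared after hepatectomy. Without agonist, 0 of 9 genes passed (2 with an unadjusted p under 0.05 by limma, Hspb1 at -1.22 and Hsp90aa1 at -0.63), where 11.5% of all tested genes did. With agonist, Hspa1a fell by 1.75 (-1.75 ± 0.52, adjusted p = 0.0327) and Hspb1 by 1.66 (-1.66 ± 0.49, adjusted p = 0.0313), 2 of 9 where 8.23% of all tested genes passed. Hspb1 read 11.43, 12.31, 12.06 and 11.08 on MCD diet with agonist after hepatectomy, and replicate 4 on standard diet, at 11.90, was inside that range. Hspa1a was no longer called without standard diet with agonist replicate 1, 2 or 3 or MCD diet with agonist replicate 1 or 2 of the hepatectomised livers (-1.17 to -1.82). For Hspb1 the same held without standard diet replicate 1, 2 or 3 or MCD diet replicate 1, 3 or 4 of these agonist-treated livers (-1.45 to -1.78). In the fit to the groups compared alone the adjusted p was 0.0592 for Hspa1a and 0.0567 for Hspb1, and both calls were also lost with median scaling and without the filter on dim probes (adjusted p 0.0575 to 0.0627). Of 7 measured pancreatic acinar markers 5 rose in this comparison (median 1.99); their part in the result was not tested.

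No chaperone was called between agonist and no agonist after hepatectomy, on standard diet (0 of 9; 0.00921% of all tested genes passed) or on the MCD diet (0 of 9; 0.405% passed), and on both diets 0 of 9 had an unadjusted p under 0.05 by limma. These 2 comparisons lie within slides. The remaining tests of differences called no member: the diet by agonist term after hepatectomy (0 of 9, 0.00461% of all genes; 0 unadjusted), diet by hepatectomy without agonist (0 of 9, 2.60%; 2 unadjusted), agonist by hepatectomy on standard diet (0 of 9, 0.276%; 4 unadjusted) and agonist by hepatectomy on the MCD diet (0 of 9, 1.11%; 1 unadjusted). The nearest to the threshold was Hsp90aa1 in the agonist by hepatectomy term on standard diet (-1.73 ± 0.41, adjusted p = 0.0626). Whether the diet effect under agonist differs before and after hepatectomy was not tested.

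The size of the Hspa1a changes depended on the background correction. With normexp, Hspa1a was at -1.21 and -2.45 between the diets at baseline, without and with agonist, at -1.09 between the diets with agonist after hepatectomy, at -1.39 and -1.56 after hepatectomy on standard diet, without and with agonist, and at -1.25 in the difference between the responses to the agonist. These 6 calls were kept. The fall with the agonist on MCD diet was -0.49 and was not called (adjusted p = 0.212). Dnajb1 after hepatectomy on standard diet with agonist was at -1.14 with normexp and stayed called.

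Probes of the same gene did not always give the same call. Hspa8 has 3 tested probes, and the bases of 2 of them are printed above. In the fit to single probes, the highest-mean probe A_55_P2080603 and A_55_P2069721 fell with the agonist on MCD diet at baseline (-1.09 ± 0.33 and -1.23 ± 0.35, adjusted p = 0.0308 and 0.0206), while A_52_P12877 was at 0.11 ± 0.37. A_52_P12877 was lower on MCD diet with agonist than on standard diet with agonist at baseline (-1.11 ± 0.37, adjusted p = 0.0391) and lower after hepatectomy on standard diet with agonist (-1.36 ± 0.37, adjusted p = 0.0239), where A_55_P2080603 was at -0.61 and 0.23. On standard diet with agonist at baseline, A_52_P12877 read 14.68, 14.44, 14.45 and 13.81, and on MCD diet with agonist 13.70, 13.61, 12.45 and 13.16.

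The second Hsph1 probe, A_55_P2003513, read 9.50, 9.40, 8.86 and 9.69 on MCD diet with agonist at baseline, the lowest of the 8 group means, and only 1 array of another group, at 9.61, reached into that range. It fell between the diets under agonist (-2.68 ± 0.58, adjusted p = 0.00200) as the first probe did, and it also fell with the agonist on MCD diet (-1.88 ± 0.58, adjusted p = 0.0319) and rose after hepatectomy on MCD diet with agonist (2.32 ± 0.58, adjusted p = 0.0123), where the first probe was at -0.67 and 1.10. After hepatectomy on standard diet with agonist it was at -1.58 ± 0.58 (adjusted p = 0.0927). For Hspe1, 2 probes at positions shifted by 3 bases gave no call between the diets under agonist. In the part they share, A_55_P2089358 has a c where A_66_P124952, the highest-mean probe, has a t. In the same comparison A_55_P1953063, which spans 327 bases of the genome, rose by 1.18 ± 0.39 at baseline (adjusted p = 0.0383 by limma). After hepatectomy it rose by 1.34 ± 0.39 (adjusted p = 0.0292 by limma). The second Hsp90aa1 probe, A_55_P2352652, was well above background on at most 1 array of any group and was not tested.

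**Figure D3:**
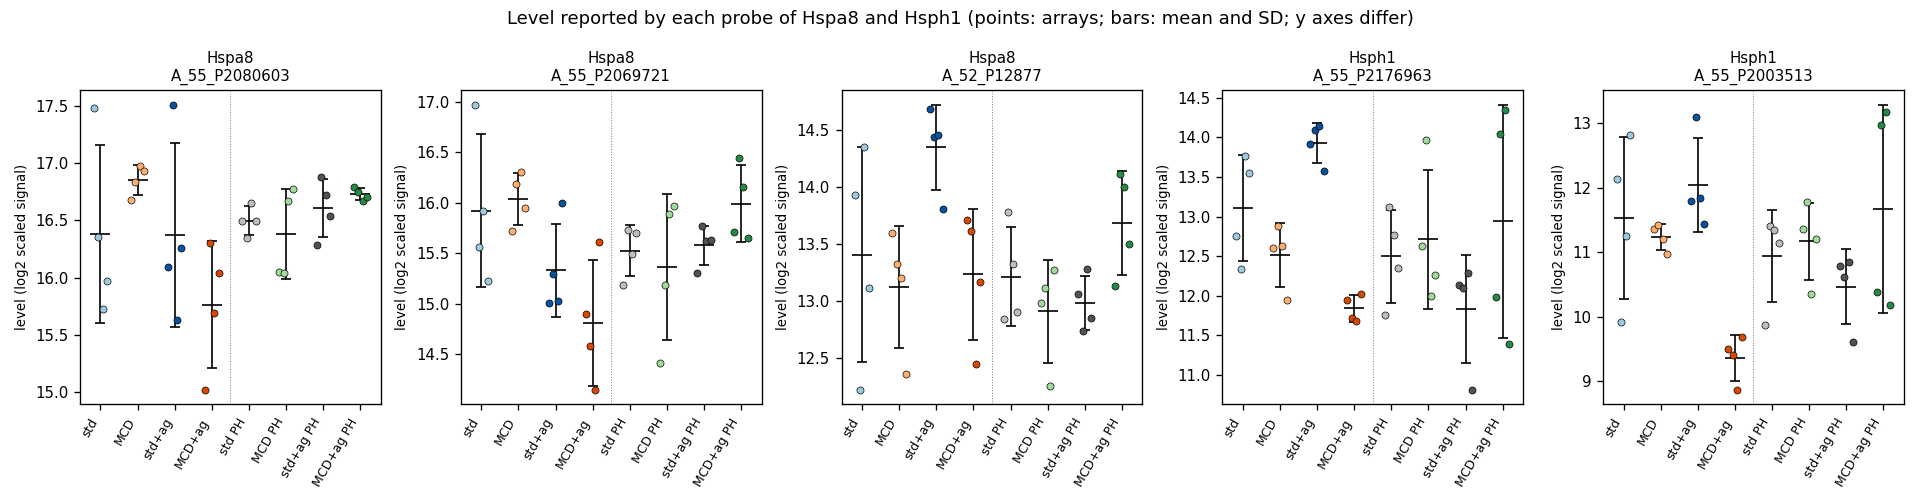
Level (log2 scaled signal, y axis, a separate scale in each panel) of the 3 tested Hspa8 probes and the 2 Hsph1 probes on each of 32 arrays (points), by group (x axis, as in the plot of levels by gene), with mean and SD as bars. Both Hsph1 probes placed MCD diet with agonist at baseline low, at 11.68 to 12.02 and 8.86 to 9.69, whereas the Hspa8 probe A_52_P12877 placed standard diet with agonist at baseline highest and A_55_P2080603 did not.

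Hspd1 and Hspe1, the mitochondrial HSP60 and HSP10, were not called in any of the 17 tests at the level of genes. Hspd1 group means lay between 14.91 and 15.43. Hspe1 read 13.45, 14.11, 14.38 and 14.44 on standard diet at baseline, its lowest group, and 14.67, 15.15, 15.07 and 14.61 on MCD diet, without overlap but short of the threshold. Of 10 other mitochondrial chaperones and proteases, 4 rose and 1 fell with the diet at baseline without agonist, and 4 rose and 1 fell with it under agonist (medians 0.54 and 0.56), where 26.0% and 15.2% of all tested genes passed and their medians were -0.13 and 0.03. Hspa9, the mitochondrial HSP70, rose in both (0.85 ± 0.24 and 1.17 ± 0.24, adjusted p = 0.0101 and 0.00132), as did its nucleotide exchange factor Grpel2 (1.17 and 0.92). Clpx, the unfoldase of a matrix protease, fell under agonist (-1.32 ± 0.30, adjusted p = 0.00287).

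The wider chaperone system was read from lists of other genes. Of 20 partners of HSP70 and HSP110, 5 fell and 2 rose between the diets under agonist (median -0.22), where 15.2% of all tested genes passed with a median of 0.03: Dnaja1, another J-domain protein, was at -1.14 ± 0.21 (adjusted p = 0.000613) and St13, an HSP70-interacting protein, at -1.15 ± 0.23, while the ubiquitin ligase Stub1 rose by 1.59 ± 0.30. After hepatectomy on standard diet with agonist 4 of the 20 fell and none rose (median -0.29), where 7.38% of all tested genes passed with a median of -0.04, among them Dnaja1 (-1.0 ± 0.21), Dnajb6 (-0.99 ± 0.21) and St13 (-1.08 ± 0.23).

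Of 11 genes for HSP90 and its cochaperones, 3 fell and 1 rose between the diets under agonist (median -0.57), and 5 fell after hepatectomy on standard diet with agonist (median -0.82), against the same 15.2% and 7.38% of all tested genes. Chordc1 fell in both (-1.83 ± 0.24 and -1.0 ± 0.24), as did Cacybp (-1.11 ± 0.23 and -1.32 ± 0.23) and Ahsa1, which stimulates the ATPase of HSP90 (-0.99 ± 0.21 and -0.85 ± 0.21). Cacybp also rose with the agonist on standard diet at baseline (1.31 ± 0.23, adjusted p = 0.00132). Fkbp5, an HSP90 cochaperone induced by glucocorticoids, rose on the MCD diet in all 4 diet comparisons (1.90, 1.56, 2.48 and 1.63). Without agonist at baseline, the constitutive HSP90 gene Hsp90ab1 fell by 0.70 (-0.70 ± 0.19, adjusted p = 0.00661) and Stip1, which links HSP70 to HSP90, by 0.95 (-0.95 ± 0.25, adjusted p = 0.00556).

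Of 15 chaperones of the endoplasmic reticulum, 5 fell and none rose between the diets under agonist (median -0.62), with Sdf2l1 at -3.28 ± 0.42 and Creld2 at -2.12 ± 0.38. After hepatectomy on standard diet with agonist 3 fell, with Pdia3 at -1.77 ± 0.24. The shares over all tested genes were again 15.2% and 7.38%. Without agonist, 4 of the 15 fell and none rose between the diets at baseline (median -0.50), where 26.0% of all tested genes passed. Without agonist on standard diet 2 fell after hepatectomy and none rose, where 13.8% passed. Hspa5, the HSP70 of that compartment, was called in none of the 12 comparisons between groups. Of the 8 TRiC chaperonin subunits only Cct7 was called between the diets under agonist (0.73 ± 0.21), and none fell in any of the 12. Of 5 other small heat shock proteins, 3 fell with the diet at baseline without agonist, where 26.0% of all tested genes passed (Hspb6 at -2.0 ± 0.37, Cryaa at -2.93 ± 0.61, Cryab at -0.86 ± 0.22) and none was called between the diets under agonist.

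Hsf1, which encodes the master factor of the response, was called in none of the 12 comparisons between groups: its group means lay between 10.06 and 10.81, and the difference between the diets under agonist was 0.02 (adjusted p = 0.971). Hsf1, Hsf2, Hsf4 and Hsbp1, which encodes a binding protein of these factors, were tested as a list. Of these 4 genes, Hsf4 rose between the diets under agonist at baseline (1.32 ± 0.33, adjusted p = 0.00632 by limma), where 15.2% of all tested genes passed. Hsf4 fell between the diets without agonist at baseline (-1.05 ± 0.33, adjusted p = 0.0187 by limma), where 26.0% passed.

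Immediate early, cold-inducible and clock genes moved in comparisons with chaperone calls, and some of them also in comparisons without such calls. Fos, an immediate early transcription factor, read 10.13, 10.83, 10.33 and 8.90 on standard diet with agonist and 5.71, 4.44, 4.36 and 4.85 on MCD diet with agonist at baseline (-5.21 ± 0.61, adjusted p = 1.62e-06), where it was well above background on 1 of 4 arrays. Cirbp, a cold-inducible RNA-binding protein, went the other way, from 10.90, 11.0, 9.92 and 10.40 to 13.77, 14.07, 13.82 and 12.94 (3.1 ± 0.29, adjusted p = 3.45e-08). Of 9 immediate early genes 6 fell and none rose in this comparison, both cold-inducible genes (Cirbp and Rbm3, 1.13 ± 0.38) rose, and of 10 clock genes 8 rose and 2 fell, with Dbp at 5.68 ± 0.83 and Arntl at -2.63 ± 0.64, where 15.2% of all tested genes passed. The hour of sampling is not given in the sources used here, and the part of these genes in the result was not tested.

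The 3 sets were also read in the other comparisons in which chaperones were called. After hepatectomy on standard diet with agonist Fos fell by 2.47 (-2.47 ± 0.61) and Cirbp rose by 1.52 ± 0.29, while 1 of 10 clock genes was called (7.38% of all tested genes). Without agonist on standard diet 5 of 9 immediate early genes and 4 of 10 clock genes fell after hepatectomy, and 1 clock gene rose (13.8% of all tested genes). With the diet at baseline without agonist Fos fell by 1.82 (-1.82 ± 0.61) and Atf3, another stress-induced immediate early gene, rose by 3.75 ± 0.79. In that comparison 4 of 9 immediate early genes fell and 1 rose, both cold-inducible genes rose (Cirbp by 0.86 ± 0.29 and Rbm3 by 1.28 ± 0.38), and 4 of 10 clock genes rose and 1 fell, where 26.0% of all tested genes passed. With the agonist on MCD diet at baseline 3 immediate early genes fell, Cirbp rose by 1.52 ± 0.29 and 0 of 10 clock genes were called (13.3% of all tested genes). With the agonist on standard diet at baseline 1 immediate early gene fell, neither cold-inducible gene was called, and 1 clock gene rose and 3 fell (6.51% of all tested genes). Between the diets with agonist after hepatectomy 4 immediate early genes fell, Cirbp rose by 1.27 ± 0.29 and 5 clock genes rose (8.23% of all tested genes). Some genes also moved where 0 of 9 chaperones were called. Between the diets without agonist after hepatectomy 6 clock genes rose and 1 fell, and 1 immediate early gene rose (11.5%). With the agonist on MCD diet after hepatectomy 1 cold-inducible gene rose (0.405%). After hepatectomy on MCD diet with agonist 1 immediate early gene fell (10.0%). No gene of the 3 sets was called after hepatectomy on MCD diet without agonist, or with the agonist on standard diet after hepatectomy.

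The 9 genes varied together in part. Over all 36 pairs of them, Pearson's r had a median of 0.13 over the 32 arrays and of 0.22 after each group's mean was taken out, where 23 of the 36 pairs were above 0. The 6 genes with the same highest group, picked here for that reason, stood higher: over the 32 arrays, r between pairs of Hspa1a, Hsph1, Dnajb1, Bag3, Hsp90aa1 and Hspb1 had a median of 0.67 (15 pairs), which includes the differences between groups. After each group's mean was taken out it had a median of 0.34, and 14 of the 15 were above 0. The strongest of these within-group values were Hsp90aa1 with Hspb1 (0.65) and with Hsph1 (0.64), Hsph1 with Bag3 (0.61) and Hspa1a with Bag3 (0.59), whereas Hspa1a and Dnajb1 were at 0.04. Hspa8 ran against Hsp90aa1 within groups (-0.60). These values are descriptions, and r between pairs of other tested genes is not given here, so whether they are particular to the chaperones cannot be told. Arrays of a group share a slide row, and arrays of the same replicate number lie in the same column of their slides.

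The genes most like Hspa1a over the 32 arrays, among 13867 genes compared, were Fos (r 0.88), Trmt1l (0.85), Zswim8 (0.83), Nek1 (0.80) and Cep350 (0.78), with within-group values of 0.38, 0.69, 0.25, 0.43 and 0.47. The genes most like the mean of the 9 chaperones after centring were Dnaja1 (0.84), Ccdc117 (0.83), Phf8 (0.83), Chordc1 (0.83) and Haus3 (0.82). That mean was 0.95 to 1.05 in the 4 livers on standard diet with agonist at baseline and -0.71 to -0.22 on MCD diet with agonist; untreated livers on standard diet spread from 0.02 to 0.88.

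**Figure D4:**
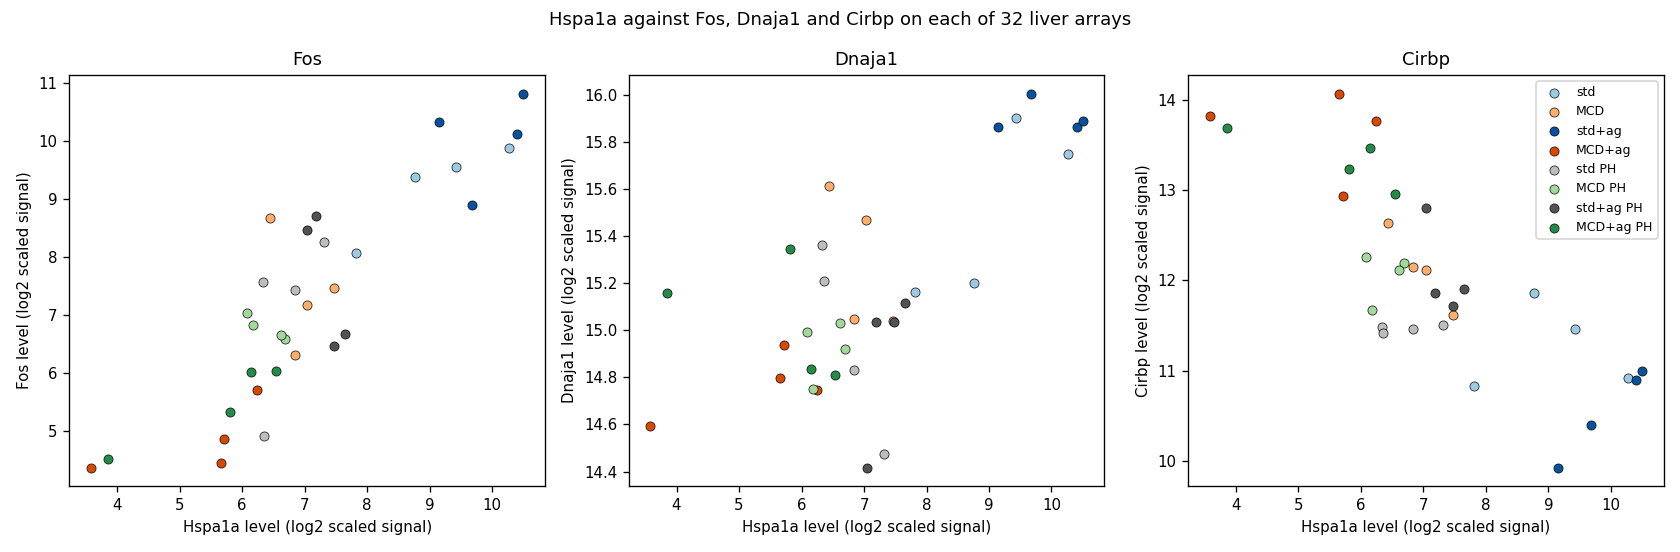
Level of Fos, Dnaja1 and Cirbp (y axes, log2 scaled signal) against the level of Hspa1a (x axis, log2 scaled signal) on each of 32 arrays (points, coloured by group as named in the plot of levels by gene). Fos was high where Hspa1a was high (r 0.88 over 32 arrays), and the arrays of MCD diet with agonist at baseline had Hspa1a at 3.58 to 6.24 and Cirbp at 12.94 to 14.07.

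Under the submitters' table the picture depends on which column names are taken. The share of all tested genes called in that table is not given here, so its counts cannot be set against the whole array. With its columns placed at the arrays they match, 5 of 9 genes fell between the diets under agonist (Hspa1a at -2.56, Hspb1 at -2.54, Hsph1 at -2.12, Dnajb1 and Hsp90aa1 both at -1.70), and Bag3 was at -0.79 (adjusted p = 0.0936). With the names as deposited, the same 5 differences belong to the agonist on the MCD diet, and 1 gene was called between the diets under agonist (Hspa8 at -1.79). Between the diets without agonist Hspa1a was then at 0.79 (adjusted p = 0.0859 by limma). In the same table at matched arrays it was at -0.98 (adjusted p = 0.0149 by limma), and in the scanner files at -2.12. Hsp90aa1 rose by 1.27 between these diets under the deposited names (adjusted p = 0.00726 by limma). With the agonist on standard diet, 3 genes were then called and neither Dnajb1 nor Hsp90aa1 was among them: Hspa1a fell by 0.98 (-0.98, adjusted p = 0.0150), Hspa8 rose by 1.55 (adjusted p = 0.00389) and Hspe1 rose as well (adjusted p = 0.0292), while Dnajb1 and Hsp90aa1 were at -0.42 and -0.77. After hepatectomy, under the deposited names, Hspa1a (-0.93, adjusted p = 0.0486) and Hspb1 (-1.64, adjusted p = 0.0406) fell with the agonist on MCD diet, and neither was called between the diets with agonist (-0.26 and -0.14). The scanner records are the ground for the names used above. Mat2a, which goes with them, was picked after its values were seen.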

How the data were processed

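Agilent one-colour arrays of 32 livers were read from the deposited scanner files. Per the file headers, spots were extracted with Agilent Feature Extraction 10.7.3.1, and the signal is a background-corrected intensity. The submitters' table holds log2 values, deposited by the authors with no stated scale; limma is named in the submitters' processing notes. Control spots and outlier spots (0.264%) were left out, spots of a probe were averaged, and log2 of the intensity was scaled to each array's 75th percentile. A probe was tested where some group had it well above background in each of its 4 livers (30139 probes, 21710 genes, the highest-mean probe for each). limma 3.58.1 in R 4.3.3 was fitted to all 8 groups with Benjamini-Hochberg adjustment at 0.05, and the code was tested on simulated data. Groups came from the sample records.

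Named were all members, up to 4 genes per list and comparison by smallest adjusted p, a fixed set of context genes, and the 5 genes most like Hspa1a and most like the members' mean. The members and lists were chosen with earlier results of these data known. Alternatives were normexp with an offset of 50, median and quantile scaling, no filter, kept outlier spots, the mean over probes, only the groups compared, a replicate block, each array left out, and the submitters' table. Probe positions are those of the files (mm9); exons and untranslated regions were not looked up.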

Additional observations from a re-analysis of the deposited data

Results flagged for a closer look

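In 7 of 112 groups of 4 arrays, 1 array stood apart from the others by Dixon's ratio (its gap to the nearest array over the whole range); chance gives about 1 in 20. Dnajb1 read 12.09 on standard diet at baseline replicate 2, against 13.56 on the nearest array (ratio 0.971), and 11.99 on standard diet after hepatectomy replicate 1, against 12.59 (0.836). Hsp90aa1 was also low on standard diet after hepatectomy replicate 1, at 13.38 against 13.93 (0.969), and high on MCD diet after hepatectomy replicate 2, at 13.59 against 13.06 (0.844). On standard diet with agonist after hepatectomy, replicate 4 was low for Hspb1, at 11.90 against 13.78 (0.929), and for Hsph1, at 10.81 against 12.09 (0.871). The Hspe1 probe A_55_P2089358 read 12.62 on standard diet at baseline replicate 1, against 13.71 (0.929).

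The response to the agonist at baseline differed between the diets for Hspa1a (-2.51) and for Dnajb1 (-1.37) by the test of the difference itself in limma (adjusted p = 0.0259 and 0.0241). Leaving out a single array was enough to lose either call: any 1 of 4 of the 16 arrays for Hspa1a, and any 1 of 3 for Dnajb1.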

How the results depend on the processing

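Counts are of the 9 chaperones called. The shares of all tested genes given in the text belong to the main settings. No share is given for the alternatives, so whether a changed count is particular to the chaperones cannot be told. Diet without agonist at baseline called 1 (Hspa1a); it called 3 with normexp and with the table at matched arrays (Hspa8 and Hspe1 added), 2 with median scaling, quantile normalization, the mean over probes and the replicate block (Hspe1 added), and 1 with the table as deposited, another gene (Hsp90aa1, upward). Diet under agonist at baseline called 6; it called 5 with no filter, only the groups compared and the matched table (Bag3 lost), 7 with the mean over probes (Hspa8 added), and 1 with the table as deposited (Hspa8). Agonist on standard diet at baseline called 2; it called 1 with normexp, median scaling, quantile normalization, no filter, the replicate block and the matched table (Dnajb1 lost), 0 with only the groups compared, and 3 other genes with the table as deposited (Hspa1a, Hspa8 and Hspe1). Agonist on MCD diet at baseline called 2. It called 1 with normexp, only the groups compared and the matched table (Hspa1a lost), and 1 with the mean over probes (Hspa8 lost). With the table as deposited it called 5 (Hspa1a and 4 others). Diet under agonist after hepatectomy called 2; it called 0 with median scaling, no filter and the table as deposited, 3 with the mean over probes, and 1 with only the groups compared (Hspe1, upward). Agonist on MCD diet after hepatectomy called 0, and 2 with the table as deposited. Hepatectomy on standard diet without agonist called 2, and 1 with median scaling, quantile normalization and only the groups compared (Bag3 lost). With normexp Bag3 was lost as well, both in this comparison and in hepatectomy on standard diet with agonist. Hepatectomy on MCD diet with agonist called 0; it called 2 with normexp and the mean over probes, and 1 with median scaling and quantile normalization. Diet by agonist at baseline called 2; it called 5 with normexp, 4 with median scaling and quantile normalization, and 1 with only the groups compared (Hsph1); the table called 2, Hspa1a and Hspa8. Agonist by hepatectomy called 0; on standard diet it called 1 with normexp and quantile normalization, and on MCD diet 2 with normexp. The cause was not tested. Median scaling moved the median of all genes by up to 0.37 between groups, and by -0.53 in diet by agonist at baseline.

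Without 1 array, the counts ran from 1 to 2 (diet without agonist) and 5 to 6 (diet under agonist) at baseline, 0 to 2 for the agonist on either diet at baseline, 0 to 1 and 0 to 2 for diet without and with agonist after hepatectomy, 1 to 3 and 4 to 5 for hepatectomy on standard diet without and with agonist, 0 to 1 for hepatectomy on MCD diet with agonist, 0 to 3 for diet by agonist at baseline, and 0 to 1 for diet by hepatectomy and for agonist by hepatectomy on standard diet. Of 22 called changes, 11 were kept without any 1 array of their groups.

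With the table as deposited, Hspa1a turned to 0.79 in diet without agonist, Hsp90aa1 to 0.35 in diet under agonist, and Dnajb1 and Hsp90aa1 to -0.42 and -0.77 with the agonist on standard diet; the exchanged columns are described in the text. By probe A_52_P12877, Hspa8 was at 0.11 with the agonist on MCD diet.

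Replicate numbers were not taken as pairs, because the correlations of same-numbered deviations ran from -0.21 to 0.44 (median 0.017). Still, 16 of 32 arrays were closest to their own number, where equal chance gives 8. In every group the number is also the column of the array on its slide, so number and column cannot be told apart. The replicate block added Hspe1 to diet without agonist at baseline (2 called) and took Dnajb1 from agonist on standard diet (1 called). The 4 arrays per group limit the precision.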

Other observations

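Markers of other cells moved in comparisons in which chaperones were called, and their part in those results was not tested. The share of all tested genes that passed is given in brackets. Of 7 stellate and fibroblast markers, 3 rose with the MCD diet at baseline without agonist (26.0%). With the agonist on that diet 2 fell (13.3%). Of 6 neutrophil markers, 2 rose with the MCD diet at baseline without agonist (26.0%). After hepatectomy on standard diet, 2 rose without agonist (13.8%) and 1 with it (7.38%). Of 7 pancreatic acinar markers, 4 rose after hepatectomy on MCD diet with agonist (10.0%), with a median of 2.43. In that comparison no chaperone was called by limma (2 with an unadjusted p under 0.05). Of 6 endothelial markers, 1 rose and 1 fell between the diets under agonist at baseline (15.2%).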
